A study of Mus musculus and synthetic RNA with 74 samples.

Results

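The small nucleolar RNA (snoRNA) host genes examined here were 10 noncoding genes of the mouse, Gas5, Snhg1, Snhg3, Snhg4, Snhg5, Snhg6, Snhg8, Snhg12, Snhg17 and Snhg18, of 20330 genes listed at embryonic day E2.5 and 21199 listed at E3.5. They were taken by name, under a rule that uses no measured value, as genes present in the gene tables of both stages, and all 10 had a mean of at least 10 normalized counts at both. The study asked what loss of METTL16, a writer of N6-methyladenosine (m6A) in RNA, does to the early embryo. Single embryos of Mettl16 HET intercrosses were sequenced. The 31 embryos of E2.5 comprised 12 KO embryos, 14 HET embryos and 5 WT embryos, and the 39 of E3.5 comprised 12 KO embryos, 9 HET embryos and 18 WT embryos. E2.5 embryos were morulae and E3.5 embryos blastocysts. The mutant allele carries a cassette of stop codons in exon 3 of Mettl16. It was made by Cas9 in B6D2F1/J zygotes and the founders were crossed to C57BL/6JRj mice, so that the embryos share a mixed background, and all came from superovulated HET females. The tables used here give 1 mean normalized count per feature over all embryos of a stage, with the 3 genotypes mixed. No value per embryo and no mean per genotype was used, so every value below is a single mean with no error, and neither the effect of the Mettl16 genotype nor the spread between embryos could be tested.

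snoRNAs guide chemical modification of ribosomal RNA and a few take part in cutting its precursor. Box C/D snoRNAs direct ribose methylation and box H/ACA snoRNAs direct the change of uridine to pseudouridine. In mammals most are cut out of introns after splicing, when the lariat has been opened and exonucleases have trimmed the intron down to the part that the snoRNA proteins protect. In noncoding hosts the snoRNA is often the best-known product, while the spliced exons hold no long conserved reading frame. When such exons are translated the ribosome meets an early stop, and many of these RNAs are short-lived because nonsense-mediated decay removes them. Gas5 was first found as an RNA that accumulates in growth-arrested cells.

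The RefSeq annotation of GRCm38 (the same build as mm10, which the tables use) placed 30 snoRNAs on the strand of and within the 10 genes, 21 of box C/D (56 to 126 nt) and 9 of box H/ACA (62 to 205 nt). Of these, 24 lay wholly inside an intron of the transcripts in the tables. The other 6 lay in an exon, 5 in the first exon of Gas5 and 1 in the only exon of Snhg8. For the 16 intronic box C/D snoRNAs the distance from the end of the snoRNA to the end of the intron had a median of 75.0 nt and a range of 65 to 313 nt, and for the 8 of box H/ACA the median was 95.5 nt and the range 76 to 382 nt. In 207 protein-coding hosts listed at both stages the median distances were 108 nt for box C/D (110 pairs of snoRNA and intron) and 2033 nt for box H/ACA (181 pairs). The introns with box H/ACA snoRNAs also differed in length, with a median of 898 nt in the 10 genes and 3703 nt in the protein-coding hosts.

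Snhg1, the host of U22, shows this layout most fully, with 9 introns of which 8 each hold a box C/D snoRNA. Their sequences are shown because the 10 short exons around them carry the strongest signal per kilobase among the 10 genes. The gene lies on chromosome 19, plus strand, from 8723487 to 8726326. Each line gives the introns' snoRNA 5′ to 3′ from RefSeq GRCm38, with the C box (TGATGA within the first 20 bases) and the D box (the last CTGA within the last 20 bases) in capitals.
SNORD25, intron 1: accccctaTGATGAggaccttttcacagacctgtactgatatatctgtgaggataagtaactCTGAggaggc
SNORD26, intron 2: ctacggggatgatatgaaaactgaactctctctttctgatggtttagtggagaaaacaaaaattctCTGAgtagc
SNORD27, intron 3: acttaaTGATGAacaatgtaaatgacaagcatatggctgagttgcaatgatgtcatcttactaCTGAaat
SNORD28, intron 4: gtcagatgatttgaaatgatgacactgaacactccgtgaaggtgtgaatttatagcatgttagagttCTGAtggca
SNORD29, intron 5: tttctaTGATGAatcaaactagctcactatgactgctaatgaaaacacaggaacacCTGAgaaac
SNORD30, intron 6: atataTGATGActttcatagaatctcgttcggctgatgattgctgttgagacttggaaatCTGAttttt
SNORD31, intron 7: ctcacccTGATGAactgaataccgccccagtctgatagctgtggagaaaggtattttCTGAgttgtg
Snord22, intron 8: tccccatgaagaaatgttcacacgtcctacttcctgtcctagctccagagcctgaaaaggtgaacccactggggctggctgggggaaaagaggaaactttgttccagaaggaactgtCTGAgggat
The C box as spelled here was found in 5 of these 8 and the D box in all 8. Over the 21 box C/D snoRNAs of the 10 genes the counts were 14 and 21, that is 66.7% and 100%. Among all 378 annotated mouse box C/D snoRNAs the shares were 71.2% and 96.3%.

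Snhg3, on chromosome 4, minus strand, from 132351933 to 132353686, is the host of U17, a box H/ACA snoRNA known for its role in processing ribosomal RNA rather than in modification. It holds a copy in each of its 2 introns, shown because at E2.5 these introns carried more reads than the exons. The ACA that stands 3 bases before the 3′ end is in capitals.
Snora73a, intron 1: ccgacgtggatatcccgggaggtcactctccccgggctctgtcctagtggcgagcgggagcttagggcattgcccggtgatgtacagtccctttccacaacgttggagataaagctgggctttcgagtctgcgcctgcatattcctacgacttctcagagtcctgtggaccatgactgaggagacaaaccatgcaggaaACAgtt
Snora73b, intron 2: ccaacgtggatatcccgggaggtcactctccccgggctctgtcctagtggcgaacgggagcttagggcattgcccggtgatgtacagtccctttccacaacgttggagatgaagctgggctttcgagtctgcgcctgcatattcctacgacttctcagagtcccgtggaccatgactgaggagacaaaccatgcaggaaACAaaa
The 2 copies are both 205 nt long and agree at 198 positions (96.6%), with a longest shared run of 56 nt. A full read of 80 nt inside a copy therefore meets at least 1 difference. Reads aligned over a shorter stretch could still be assigned to the wrong copy or be left out. How far this changed the split of counts between both introns was not tested. An ACA at this place was present in 4 of the 9 box H/ACA snoRNAs of the 10 genes (44.4%) and in 26.2% of all 902 annotated ones. The place was counted from the annotated end, so these shares also depend on where the annotation ends. Both SNORA71 copies of Snhg17 end in ACA itself and were not counted.

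Snhg5, on chromosome 9, minus strand, from 88521052 to 88522897, is the host of U50, which also comes as 2 copies in neighbouring introns of 201 nt each. They are shown because the most abundant intron of Snhg5 is not one of them. The C and D boxes are in capitals.
SNORD50, intron 3: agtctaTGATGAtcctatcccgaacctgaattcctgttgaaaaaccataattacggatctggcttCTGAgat
SNORD50, intron 4: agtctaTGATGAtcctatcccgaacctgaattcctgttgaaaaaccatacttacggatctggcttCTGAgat
These copies agree at 71 of 72 positions (98.6%). Each has 1 other annotated locus in the genome with the same sequence, so reads within them cannot be placed with certainty.

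Host genes of snoRNAs are known for starting their RNA with a tract of pyrimidines, as messages for ribosomal proteins do. For 8 of the 10 genes the RefSeq promoter table (GRCm38.p6) holds the start of a transcript listed in the tables. Windows from 10 bases before to 20 bases from the start onwards follow, with the longest run of C and T in capitals, searched on the strand of the gene.
Gas5: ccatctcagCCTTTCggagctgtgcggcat
Snhg17, second transcript: agcgcccatcgtgaagaccacagTTTCCTg
Snhg17, first transcript: aagaccacagTTTCCTgtcgcgtggatgtg
Snhg8: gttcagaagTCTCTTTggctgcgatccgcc
Snhg12: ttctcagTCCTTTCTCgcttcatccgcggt
Snhg3: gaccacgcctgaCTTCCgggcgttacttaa
Snhg5: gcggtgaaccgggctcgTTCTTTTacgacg
Snhg18: cccaggCCCCTCCTCTagccccgcctcttc
Snhg1: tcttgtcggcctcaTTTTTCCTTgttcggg
A run of at least 8 pyrimidines was found in 3 of these 8 genes, Snhg1, Snhg12 and Snhg18, and in 11.2% of 32851 windows of all promoters. The median longest run was 7.00 bases in the 8 genes (by their longest window) and 4.00 bases in all windows. The run covered or touched the annotated start in Gas5, Snhg8, Snhg12, Snhg18 and the first transcript of Snhg17, and began after it in the others. The nonamer TACAGAGAA, which METTL16 methylates in the hairpins of Mat2a RNA, was found in the spliced transcript of 0 of the 10 genes and in that of 3.40% of all 24418 genes in the tables. It was found in the spliced Mat2a transcript by the same search. Over the whole gene, introns included, it was found in 1 of the 10, in intron 2 of Snhg4, and in 6.16% of 7376 genes whose length lies within the range of the 10.

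Levels were read from the Salmon table, whose unit is the mean of normalized counts over the embryos of a stage. Gas5 was the most abundant of the 10 at E2.5, with 3661 normalized counts, and had 8414 at E3.5. Snhg1 had 1927 at E2.5 and 8945 at E3.5, where it was the highest of the 10. Snhg5 followed with 1611 and 1782. These 3 genes stood apart from the others at both stages, and Gas5 and Snhg1 alone held 63.3% of the summed count of the 10 genes at E2.5 and 79.2% at E3.5.

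The middle of the order was close. Snhg17, the host of SNORA71, had 489 normalized counts at E2.5 and 603 at E3.5. Snhg12, which carries 4 different snoRNAs, had 374 and 353, and Snhg3 had 284 and 552. Snhg6, the host of U87, had 207 and 562, so that Snhg3, Snhg6 and Snhg17 differed by little at E3.5. Snhg8, the host of SNORA24, had 124 and 400, and Snhg4, the host of SNORA74A, had 142 and 215. Snhg18, the host of SNORD123, was the lowest of the 10 with 13.5 at E2.5 and 88 at E3.5. With no spread between embryos, it cannot be said which neighbours in this order differ.

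**Figure D1:**
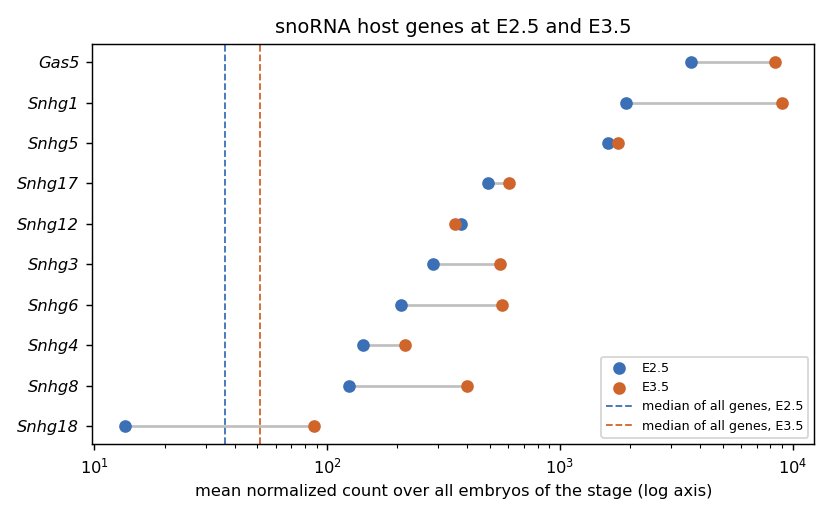
Mean normalized count of each snoRNA host gene (horizontal log axis) over 31 embryos at E2.5 (blue) and 39 embryos at E3.5 (orange), with dashed lines at the median of all genes, 36.4 and 51.6. Gas5, Snhg1 and Snhg5 lie at 1611 or higher at both stages, and only Snhg18 at E2.5 lies below the median of all genes.

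Set among all genes, 9 of the 10 lay above the median gene at E2.5 and 10 at E3.5. The median of all genes was 36.4 and 51.6 normalized counts, and that of the 10 was 329 and 557. Their transcripts are short, from 407 nt in Snhg6 to 3049 nt in Snhg17 (the mean length of its 2 listed transcripts), and normalized counts grow with length. Per kilobase of transcript, the Salmon level of Snhg1 exceeded that of Gas5, with 4049 against 1433 at E2.5 and 18792 against 3294 at E3.5. On this scale Snhg1 stood at the 97.2 and 99.2 percentile of all genes, Snhg5 at 93.7 and 93.4, Gas5 at 93.2 and 96.1, Snhg3 at 88 and 91.7, and Snhg18 at 44.9 and 59.8. The values of Gas5 depend on its listed transcript of 2554 nt, of which the first exon, which covers snoRNAs, is 2382 nt. By exon counts per kilobase at E2.5 that exon had 1385. Exons 2 to 4 of Gas5 had 10032 to 24160, against 7837 to 25746 for the exons of Snhg1. The median percentile of the 10 per kilobase was 86.8 at E2.5 and 88.8 at E3.5. It was 84.4 and 82.1 for the 207 protein-coding hosts, many of which code for ribosomal proteins and translation factors. It was 75.7 and 77.1 for 7 other genes of the Snhg series listed at both stages, Snhg7, Snhg9, Snhg10, Snhg11, Snhg14, Snhg15 and Snhg20.

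The labelled stage was checked by its markers. The list for the morula and blastocyst held 11 genes, among them the oocyte gene Zp3, and all were listed at both stages. Pou5f1, a pluripotency factor, was the highest at E2.5 with 9017 normalized counts and Sox17, an endoderm factor, the lowest with 71.5. At E3.5 Krt18, a keratin of the trophectoderm, was the highest with 35173 and Zp3, a coat protein of the oocyte, the lowest with 104. The share of the Salmon table was at least 1.5 times higher at E3.5 in 6 of the 11, against 42.7% of 11774 genes. It was at least 1.5 times lower in 4, Pou5f1, Gata4, Tfap2c and Zp3, against 24.1%. Markers of cumulus and granulosa cells were at or near 0. Ptx3 was not listed at either stage, the highest of the other 4, Tnfaip6, had 3.74 and 7.32, and the lowest were Inha at E2.5 with 0.0286 and Amh at E3.5 with 0.0606. Of the blood markers, Hba-a1, a globin, had 49.6 and 12.0 normalized counts and Ptprc 0.316 and 1.34, while Hbb-b1 was not listed at E2.5 and had 0.181 at E3.5.

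Between the stages, each gene's share of its Salmon table was compared, since the 2 stages were normalized apart and summed to 23557112 and 27145016 normalized counts. The genotypes were also mixed in different proportions, so stage, normalization and genotype cannot be told apart. In whole embryos, fewer cells of a type and less RNA per cell cannot be told apart either. The share at E3.5 was at least 1.5 times that at E2.5 in 6 of the 10 genes, against 42.7% of 11774 genes with a mean of at least 10 at both stages. The count was 5 of the 10 when levels were taken over the median abundant gene or from summed exon counts, since Snhg3 then had 1.46 and 1.38. It was at least 1.5 times lower in 0 of the 10, against 24.1% of those genes. The median ratio was 1.84 for the 10 genes and 1.27 for all genes. It was 1.13 for the 175 protein-coding hosts that passed the same minimum.

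Snhg18 had the largest ratio of the 10, 5.65, at the 92.2 percentile of all genes. Snhg1 followed with 4.03, at the 87.4 percentile. The ratio was 2.79 for Snhg8, 2.36 for Snhg6, 1.99 for Gas5 and 1.68 for Snhg3. Snhg4 with 1.32 was close to the median gene. Snhg17 had 1.07, Snhg5 0.960 and Snhg12 0.818, and for Snhg17 the direction turned with the scaling, since the ratio was 0.925 when levels were taken over the median abundant gene. That scaling lowered the median of all genes from 1.27 to 1.10, and with no scaling it was 1.46. The ratios of the 10 genes thus ranged from 0.818 to 5.65, with no error known.

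The exon and intron tables show how the reads were laid out along each host. The exons of the 10 genes had a median length of 84.5 nt and their introns one of 310 nt, against 136 nt and 1396 nt for all exons and introns listed. A read pair can touch several exons this short and is then counted on each. The summed exon count of Snhg1 was 3.93 times its Salmon count at E2.5 and 3.48 times at E3.5, while for Snhg8, with its single exon, the ratio was 0.921 and 0.798. Levels of exons are therefore compared within a gene, or per kilobase with this limit.

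In Snhg1 the exons were uneven, and the unevenness differed between the stages. Exon 1 (20 nt) had 401 normalized counts at E2.5 and 968 at E3.5. Exon 2 (49 nt) had 453 and 480, while exon 4, of nearly the same length (50 nt), had 957 and 4233. At E3.5 exon 2 thus stood at 13.5% of the median exon of the gene and at E2.5 at 55.4%. Exon 3 had 995 and 3180, and exons 5 to 9 had 755 to 850 at E2.5 and 3323 to 4425 at E3.5. Exon 10 had 690 and 2313. As shares of all exon and intron counts, exons 4 to 9 had E3.5 over E2.5 ratios of 5.08 to 6.07 and exon 2 had one of 1.22. The first 2 exons had the lowest counts at both stages. Per kilobase exon 2 had 9244 and 9788 and exon 1, which is very short, 20068 and 48423, so by length only exon 2 was among the least covered.

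The introns of Snhg1 held little. They ranged from 13.6 to 59.7 normalized counts at E2.5 and from 26.9 to 134 at E3.5. The highest at E3.5 was intron 8 with U22, and the lowest at both stages was intron 9, the only one without a snoRNA, which is also the shortest (136 nt). By length the lowest was intron 1 with SNORD25, at 75.8 and 138 per kilobase, against 99.7 and 198 for intron 9. Per kilobase the introns of Snhg1 stood at 0.937% of the exons at E2.5 and 0.443% at E3.5. The median of all genes was 0.939% of 8781 genes with introns and at least 100 summed exon counts at E2.5, and 1.64% of 9266 genes at E3.5.

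**Figure D2:**
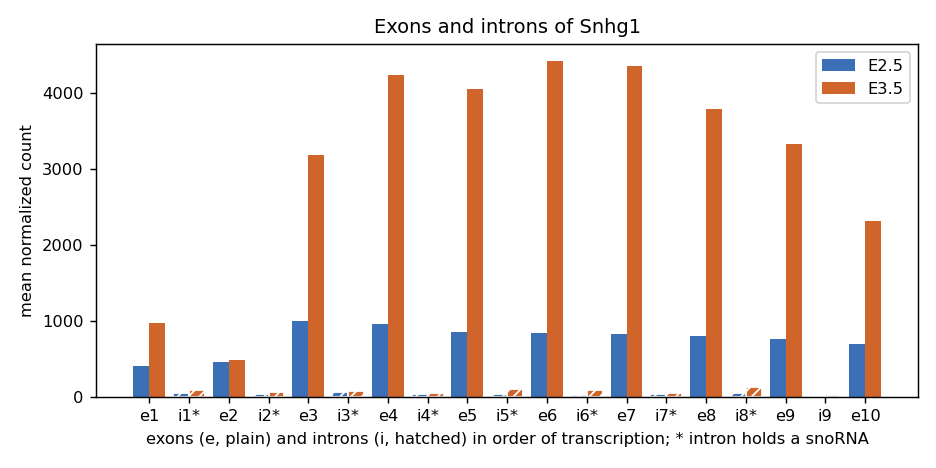
Mean normalized count (vertical axis) of the 10 exons (e, plain bars) and 9 introns (i, hatched bars) of Snhg1 in order of transcription at E2.5 (blue) and E3.5 (orange); a star marks introns with a snoRNA. Exons 4 to 9 lie between 3323 and 4425 at E3.5, exon 2 lies at 453 and 480, and the introns lie at 134 or lower.

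Snhg3 had the opposite layout. Its intron 2 (419 nt), with Snora73b, had 788 normalized counts at E2.5 and 466 at E3.5. Intron 1 (898 nt), with Snora73a, had 457 and 260. The exons had 268, 369 and 189 in order of transcription at E2.5. At E3.5 they had 317, 383 and 260. Both introns were above the median exon at E2.5 (170% and 294% of it), and at E3.5 only intron 2 was (82.1% and 147%). While the exons of Snhg3 had E3.5 over E2.5 ratios of 1.2 to 1.59 as shares of all exon and intron counts, its introns had ratios of 0.657 and 0.684.

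**Figure D3:**
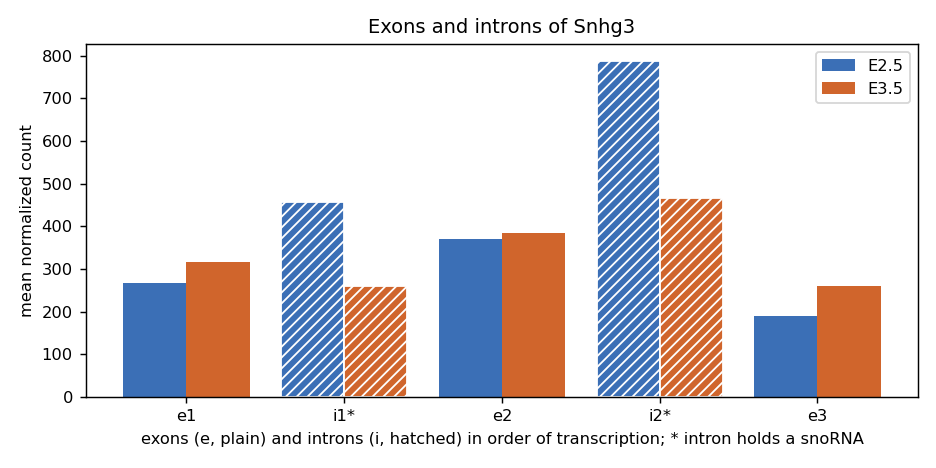
Mean normalized count (vertical axis) of the 3 exons (e, plain bars) and 2 introns (i, hatched bars) of Snhg3 in order of transcription at E2.5 (blue) and E3.5 (orange); both introns hold a copy of Snora73. At E2.5 both introns, 457 and 788, lie above every exon, and at E3.5 intron 2, at 466, does.

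The table also has rows for snoRNAs that RefSeq lists under their own gene name, 12 of them within the 10 hosts. Snora73b had 655 normalized counts at E2.5 and 303 at E3.5, which ranked 2 and 3 among 114 such rows of all snoRNAs, whose medians were 13.2 and 12.4. Snora73a had 227 and 128. The row of Snora73b held 83.1% of the count of its intron at E2.5 and 64.9% at E3.5, in 48.9% of its length. The row of Snora73a held 49.7% and 49.3% in 22.8% of the length. A read that only touches the snoRNA is counted on its row, so these percentages are not shares of reads inside it. Mature snoRNAs have no polyA tail, the libraries were made from polyA RNA without strand information, and these rows are not levels of mature snoRNAs.

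Among the other 10 of these rows, Snord22 in Snhg1 had 43.3 and 120 normalized counts and Snora24 in Snhg8 had 44.9 and 79.1. Snora61 in Snhg12 had 25.4 and 16.1. The remaining 7 had 0.118 to 13.5 at E2.5 and 0.680 to 20.0 at E3.5, with Snord123 in Snhg18 the lowest at both stages. Snora24 lies inside the only exon listed for Snhg8 (785 nt, chromosome 3, minus strand, 123507552 to 123508336), which has no intron in these tables. For Snhg8 the tables therefore do not show a spliced host, and exon and intron reads could not be separated.

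Gas5 (chromosome 1, plus strand, 161035166 to 161038537) was listed with 1 transcript whose first exon is 2382 nt long and covers 5 snoRNAs, SNORD74, SNORD75, SNORD24, SNORD44 and SNORD78. That exon had 3298 normalized counts at E2.5 and 6985 at E3.5, so reads from within it cannot be divided into exons and introns. Per kilobase it had 1385 and 2932, against 10032 to 24160 and 20746 to 58907 for exons 2 to 4, which are 43 to 81 nt long. The 3 listed introns, which hold a snoRNA of the Z15 family, Snord47 and SNORD81, had 43.6, 25.2 and 20.1 normalized counts at E2.5. At E3.5 they had 38.3, 52.6 and 69.7. Intron 3 had the largest E3.5 over E2.5 ratio of these introns, 4.00.

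In Snhg5 the highest intron was one without a snoRNA. Intron 2 (331 nt) had 251 normalized counts at E2.5 and 264 at E3.5, or 49.2% and 65.2% of the median exon. Introns 3 and 4 with the U50 copies had 57.9 and 43 at E2.5, and at E3.5 44 and 26.5. Intron 1 had 19.7 and 5.78. The exons ranged from 464 to 833 at E2.5 and from 241 to 790 at E3.5, with exon 2 the lowest at both stages.

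Snhg6, on chromosome 1, minus strand, from 9942025 to 9944118, was similar in that its largest intron count came from an intron without a snoRNA. Intron 1 (1302 nt) had 134 normalized counts at E2.5, as much as the exons (87.6 to 133), and 116 at E3.5, below all exons (196 to 385). Intron 2 (218 nt) with Snord87 had 16.1 and 25, and intron 3 had 8.57 and 12.0. Per kilobase intron 1 had 103 and 89.4 and intron 2 had 73.8 and 115, so by length intron 2 was the higher at E3.5. Exons 2 and 3 had E3.5 over E2.5 ratios of 3.33 and 3.23, and exon 1 had one of 1.75.

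In Snhg12, on chromosome 4, plus strand, from 132308678 to 132311024, all 4 introns hold a snoRNA. The introns with Snora16a, Snora44, Snora61 and Snord99 had 24.5, 18.2, 42.3 and 19.6 normalized counts at E2.5. At E3.5 they had 18.4, 14.6, 25.2 and 32. Its 5 exons were even, with 148 to 201 at E2.5 and 107 to 145 at E3.5. The intron with Snord99 was the only one of the 4 with a ratio above 1 between the stages, 1.88.

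Snhg17, on chromosome 2, minus strand, from 158353700 to 158361522, was listed with 2 transcripts that share introns 2, 4 and 5. Intron 4 (1918 nt, no snoRNA) had 82.3 normalized counts at E2.5 and 82.9 at E3.5. Intron 3, with a SNORA71 copy, had 67.2 at both stages in the first transcript. The wider form of that intron in the second transcript, which covers exon sequence of the first, had 153 and 139. Intron 5, with the other SNORA71 copy, had 29.3 and 47.7, and intron 2 had 1.54 and 0.410. The exons ranged from 74.4 to 215 and from 50 to 234. Snhg18, on chromosome 15, minus strand, from 32240568 to 32244662, had 6.82 and 10.7 on its 2 exons and 1.63 on its single intron (2612 nt) at E2.5. At E3.5 these were 42, 52.7 and 5.27.

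In Snhg4 (chromosome 18, plus strand, 35553410 to 35558316) the highest intron was also one without a snoRNA. Intron 2 (2154 nt), which holds the microRNA gene Mir1949, had 226 normalized counts at E2.5 and 175 at E3.5, or 325% and 246% of the median exon. Intron 1 had 60.7 and 36.5, and intron 3 with Snora74a had 13.2 and 13.5. The exons had 62.7, 73.4, 65.8 and 116 at E2.5. At E3.5 they had 41.8, 67, 75.6 and 146. No exon of another listed gene other than a snoRNA or Mir1949 overlapped any of the 10 hosts.

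Over whole genes, introns were set against exons per kilobase. At E2.5 the intron level was 50% of the exon level in Snhg3, 29% in Snhg4, 18% in Snhg17, 14.6% in Snhg5, 8.10% in Snhg6, 5.29% in Snhg18, 4.47% in Gas5, 4.11% in Snhg12 and 0.937% in Snhg1. At E3.5 the order of the first 4 was the same and their values lay closer together. They were 25.1% in Snhg3, 20.9% in Snhg4, 19.1% in Snhg17 and 16.6% in Snhg5. Snhg12 had 4.95%, Gas5 3.59%, Snhg6 3.27%, Snhg18 3.16% and Snhg1 0.443%. The order of the first 4 depended on the introns counted. Some introns of Snhg17 cover exon sequence of its other transcript, and intron 2 of Snhg4 holds Mir1949. Only introns free of exons of any gene were then kept, a choice made after seeing the data, which left none in Snhg3. Snhg4 then stood above Snhg5 (14.6%) and Snhg17 (11.1%) at E2.5. At E3.5 the order was Snhg5 (16.6%), Snhg17 (14.3%) and Snhg4 (13.3%). In every summed exon count of Snhg17, overlapping exons of its listed transcripts were summed as separate exons, 10 in all over 3691 nt. Reads on such overlaps therefore entered the sum more than once. With all introns, the median over the 9 hosts with introns was 8.10% at E2.5 and 4.95% at E3.5. In all genes it was 0.939% and 1.64%, and in protein-coding hosts 0.680% of 160 genes and 1.14% of 162 genes. Of the 8 hosts that, like the genes they are set beside, had at least 100 summed exon counts, 5 lay above the 90th percentile of all genes (4.95%) at E2.5 and 4 did (7.78%) at E3.5. By the median intron over the median exon the counts were 5 and 1, so the position of the hosts at E3.5 depended on this choice.

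**Figure D4:**
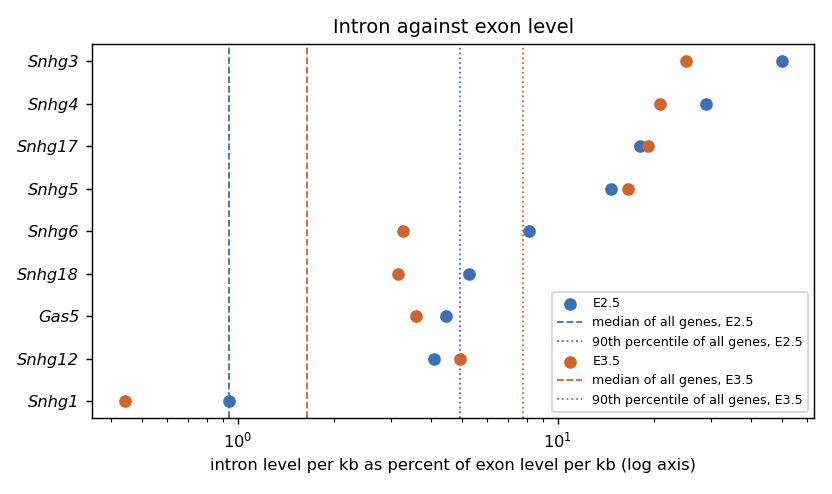
Intron level per kilobase as percent of exon level per kilobase (horizontal log axis) of the 9 hosts with introns at E2.5 (blue) and E3.5 (orange); dashed and dotted lines give the median and the 90th percentile of all genes. Snhg3, Snhg4, Snhg17 and Snhg5 lie to the right of the dotted line at both stages, and Snhg1 lies at or left of the median.

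Since short exons draw more reads per kilobase than long introns, the same was computed per length plus 79 nt, the number of places from which an 80-nt read touches a feature, a choice made after seeing the data. Snhg1 then stood at 1.92% and 0.907%, Snhg3 at 68.9% and 34.6%, and the median of all genes at 1.17% and 2.02%. On this scale too, Snhg1 was the lowest and Snhg3 the highest of the 9 at both stages. By the median intron over the median exon, Snhg3 was again the highest, with 40.1% and 19.9%. At E2.5 Gas5 (0.691%) was then below Snhg1 (0.740%), and at E3.5 Snhg1 (0.378%) was below Gas5 (0.720%).

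Introns with a snoRNA and introns without one overlapped in level. Introns with identical coordinates in 2 transcripts were counted once. This left 36 introns, 25 with a snoRNA (1 SNORA71 copy lies in 2 overlapping introns of Snhg17) and 11 without. Overlapping introns with different coordinates were kept apart. Introns 1 and 3 of the second Snhg17 transcript cover exon sequence of the first, so exon reads enter both groups. The median level was 128 normalized counts per kilobase with a snoRNA and 99.7 without at E2.5. At E3.5 the medians were 138 and 56.7. The ranges overlapped, from 0.624 to 1880 with a snoRNA and from 4.49 to 760 without at E2.5. Taken as percent of the exon level of the same gene, which leaves out Snhg18 at under 100 summed exon counts, the order was the other way, with 4.77% and 5.27% for 24 introns with a snoRNA and 11.5% and 11.3% for 11 without. By box, the 15 introns with a C/D snoRNA had medians of 1.99% and 0.934%, and the 9 with an H/ACA snoRNA 12.3% and 13.2%. Introns of 1 gene share its transcription, and 8 of the 15 box C/D introns belong to Snhg1, so these medians are a description and no test.

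Between the stages, exons and introns of a host differed in their ratios. As shares of all exon and intron counts, the summed exons had an E3.5 over E2.5 ratio of 4.74 in Snhg1 and the summed introns one of 2.24. The ratios were 2.76 and 1.11 in Snhg6, 1.34 and 0.674 in Snhg3, 2.60 and 2.09 in Gas5, 6.26 and 3.74 in Snhg18, and 1.2 and 0.866 in Snhg4. In Snhg5 (0.925 and 1.05), Snhg12 (0.827 and 0.996) and Snhg17 (0.956 and 1.02) the exons had the lower ratio. The exon ratio was thus above the intron ratio in 6 of the 9 hosts. Snhg18 did not reach 100 summed exon counts. Without it the count was 5 of 8 hosts, beside 22.9% of 8004 genes with at least 100 summed exon counts and intron reads at both stages. In the whole tables introns held 5.97% of the counts at E2.5 and 8.77% at E3.5, and the median gene had ratios of 1.12 for exons and 1.84 for introns.

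**Figure D5:**
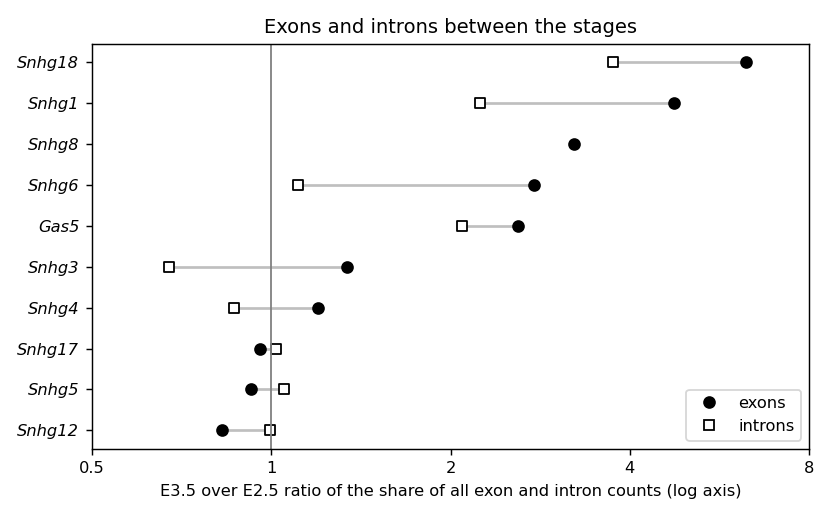
E3.5 over E2.5 ratio (horizontal log axis) of the share of all exon and intron counts, for the summed exons (filled circles) and summed introns (open squares) of each host. In Snhg18, Snhg1, Snhg6, Gas5, Snhg3 and Snhg4 the exons lie to the right of the introns, and Snhg8 has no intron listed.

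The core proteins of snoRNA particles had high levels per kilobase at both stages. The 4 core proteins of box C/D particles, Fbl, Nop56, Nop58 and Snu13, had a median per-kilobase percentile of 98.4 at E2.5 and 97.6 at E3.5. The highest of them by mean was Snu13, which binds the C and D boxes, with 16811 and 14973 normalized counts, and the lowest was Fbl, the methyltransferase, with 3765 and 3419. The 4 core proteins of box H/ACA particles stood at 96.6 and 96.7, from Nhp2 with 20560 and 14088 to Gar1 with 573 and 359. The 9 assembly factors stood at 90.8 and 85.0, from Znhit3 with 7799 and 6621 to Naf1 with 115 and 99.9.

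The 10 factors of nonsense-mediated decay had a median per-kilobase percentile of 79.7 at E2.5 and 76.1 at E3.5. Smg1, the kinase of the pathway, had the highest mean with 2251 and 3216 normalized counts. The lowest were Upf1, the helicase on which decay depends, with 277 at E2.5, and Smg9, a partner of Smg1, with 122 at E3.5. The share of the table was at least 1.5 times lower at E3.5 in 5 of these 10 genes and at least 1.5 times higher in 0, against 24.1% and 42.7% of all genes.

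The 5 genes of the exon junction complex, which marks spliced junctions for that pathway, stood at 95.1 and 96.3, from Eif4a3 with 23070 and 9696 to Magohb with 223 and 498. The 5 genes of snoRNA release stood at 79.6 and 84.1. Xrn2, a nuclear exonuclease, was the highest of them with 3798 and 3113. The lowest were Dbr1, the enzyme that opens intron lariats, with 399 at E2.5, and Xrn1, a cytoplasmic exonuclease, with 768 at E3.5. The median ratio of shares between the stages was 0.781 for the box C/D list, 0.718 for H/ACA, 0.757 for assembly, 0.679 for decay, 1.43 for the exon junction complex and 0.963 for release, beside 1.84 for the 10 hosts and 1.27 for all genes.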

How the data were processed

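Per the labels and the paper's methods, polyA RNA of single embryos was made into Smart-seq2 libraries without strand information. The authors estimated counts of RefSeq transcripts of mm10 with Salmon 0.7.2, summed them to genes, aligned reads with STAR, counted them on exons and on introns shortened by 10 nt at each end with featureCounts, and normalized them per stage with DESeq2 1.18.1. The signal used here is the authors' mean normalized count over all embryos of a stage, as deposited. The deposited log2 fold changes between genotypes and their adjusted p-values were not used, nor was the in vitro methylation table. Columns of samples outside the series numbered 0.

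The 10 genes, the gene lists and the markers were chosen with earlier results of these data known, and of each list the highest and lowest genes by mean and any absent are named. Percentiles are the share of genes at or below a value. snoRNAs were assigned to introns of the same strand that hold them whole, by RefSeq coordinates of GRCm38.p6. Ratios, medians and overlaps were computed with Python 3.11.15, pandas and numpy, and tested on simulated data. The paper lists the reads of each embryo library, but this depth was not used here. No test was run, since 1 mean per stage has no error.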

Additional observations from a re-analysis of the deposited data

How the results depend on the processing

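Each value rests on 1 mean per stage, so an alternative counts as unchanged here only if it is equal to 3 significant digits. Leaving out introns under 100 nt changed none of the medians over the host genes, since the hosts have no such intron. Over the 10 genes the median share of the table, in CPM, was 14 at E2.5 and 20.5 at E3.5 by Salmon, and 20.1 and 29.3 by summed exon counts. The median percentile was 71.7 and 73.7 among all genes and 54.5 and 58.0 among those whose mean reached 10 or more. The median exon level per kilobase was 1314 and 1622 over summed exons, 1976 and 2391 by the median exon, and 771 and 1029 per length plus 79 nt. The median intron level was 8.10% and 4.95% of the exon level, 4.06% and 3.9% by the median intron over the median exon, 9.73% and 8.22% for the 6 hosts with introns free of exons of any gene, and 12.6% and 6.91% per length plus 79 nt. The last of these, the exon level with the same length, and the introns free of exons were chosen after seeing the data. The ratio of introns with a snoRNA to those without was 1.29 and 2.43. Over the length outside snoRNAs it was 1.85 and 3.62, but that measure kept all reads of the intron and could only raise the ratio. As percent of the exon level the order was the other way. The medians were then 4.77% and 5.27% with a snoRNA and 11.5% and 11.3% without. The E3.5 over E2.5 ratio had a median of 1.84, 1.59 over the median gene and 2.03 by summed exon counts, and 7 in place of 8 hosts were then above 1, since Snhg17 turned to 0.925 and 0.985. Hosts with a ratio of at least 1.5 numbered 5 in place of 6, without Snhg3. The cause was not tested. By share of the Salmon total, 60.4% of 11774 genes were above 1 and 42.7% reached 1.5. Such shares of all genes were not computed for the alternative scalings.

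No paired analysis was possible because the tables give no value per embryo and the in vitro libraries, whose groups share replicate numbers, were not used. Fits without single embryos were not run for the same reason. The genotype was not compared, since the authors' own comparison columns were left unused. Low values such as those of Snhg18 rest on the fewest reads.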
